A study of Homo sapiens with 12 samples.

Results

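The genes described here are 10 lysosomal proteases of U937 cells: the cathepsins CTSA, CTSB, CTSC, CTSD, CTSH, CTSK, CTSL, CTSS and CTSZ, and legumain (LGMN). They are 10 of the 19775 genes measured, were chosen by name, and were read from every probe set of the HG-U133 Plus 2.0 array that its annotation pairs with these symbols, 20 of 54675. CTSB has 5 of them, CTSC 4, CTSS 3 and CTSZ 2, and each of the other 6 genes has 1. A probe set is a group of short probes read together, and where a gene has several, the one with the highest mean over all 12 arrays is called its brightest and stands for the gene. Names ending in _s_at mark probes shared by several transcripts, and those in _x_at probes that may also bind other genes.

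U937 is a human line derived from a histiocytic lymphoma, with features of immature monocytes. The line used here carried a TRIPZ Tet-On cassette, kept under puromycin, that makes a hairpin RNA against ZXDC (its products ZXDC1 and ZXDC2) once doxycycline is added; whether the line grew from a single cell is not given in the sources used here. The 4 groups were vehicle (0.1% DMSO, no doxycycline), vehicle with doxycycline, PMA (100 nM, no doxycycline) and PMA with doxycycline, each with 3 arrays that the labels name biological replicates 1 to 3. PMA is a phorbol ester that activates protein kinase C and makes U937 cells more like macrophages. Cultures with doxycycline received 0.5 µg/mL of it each day over 4 days, and the agent was added after the first 2 of them and left for 3 days, as the labels state it. All 4 groups carried the cassette, and no group with another hairpin was used here, so an effect of doxycycline itself and one of the hairpin cannot be told apart. In all groups the RNA was that of the whole culture, so fewer cells of a type and less RNA per cell cannot be told apart either.

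Cathepsins are made as inactive precursors, carried to the lysosome mostly by the mannose 6-phosphate route, and activated there at low pH. Most of these enzymes are cysteine proteases, while cathepsin D is an aspartic protease, cathepsin A a serine carboxypeptidase and legumain a cysteine protease that cuts after asparagine. Macrophages use them to break down ingested protein, and MiT/TFE transcription factors such as TFEB, TFE3 and MITF switch on many lysosomal genes together.

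The array values are log2 signals, and a probe set's rank among all is given only to say how dim it was, since signals of different probe sets are not comparable as expression levels. The median signal lay between 5.16 and 5.22 on all 12 arrays. One reading of RNA quality is how much brighter the 3' control probe set of ACTB was than its 5' one. The 4 arrays numbered 1 stood apart in it, at 1.99 to 2.72 (log2) against 0.71 to 1.64 on the 8 numbered 2 or 3. The same reading for GAPDH did not separate them, at 0.17 to 0.25 against 0.12 to 0.25. ZXDC, the gene the hairpin targets, had an averaged difference of -0.50 (SE 0.11) with doxycycline on its brightest probe set, and the averages over its 6 probe sets ran from -0.63 to -0.25, none with a limma adjusted p under 0.05. Of 10 monocyte and macrophage marker genes measured, 5 were called higher with PMA without doxycycline, where 11.9% of all genes were. ITGAX rose by 4.81 (SE 0.17) and ITGAM by 4.81 (SE 0.23). The other 5, LYZ among them, had no limma adjusted p under 0.05, and the lowest difference was -0.55. Of the 10, 3 lay above the array median on all 12 arrays (ITGAM, ITGAX and LYZ). Of the markers of other cells, 0 of 6 for T cells, 2 of 5 for B cells (CD79A and PAX5), 1 of 4 for erythroid cells (HBB) and 1 of 6 for epithelial cells (KRT8) did so. The mean signal of the monocyte and macrophage list was 5.48 to 5.69 on the 6 vehicle arrays and 7.03 to 7.66 on the 6 PMA arrays, and of the other markers PAX5 fell by 1.37 and KLF1 by 0.82 with PMA. The part of such shifts in the results below was not tested.

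PMA without doxycycline raised 8 of the 10 genes and lowered 0 on their brightest probe sets, at a limma adjusted p under 0.05, the threshold used throughout. The genes that rose were CTSB, CTSH, CTSS, CTSA, CTSK, CTSD, CTSL and CTSZ, by 0.78 to 2.40 (log2), and the other two were CTSC and LGMN. Among all 19775 genes 11.9% were called higher, 17.8% lower and 29.7% in either direction, and the median difference was 1.08 over the 10 genes and 0.01 over all. Over probe sets the count was 14 higher and 2 lower of 20, against 10.4% higher, 13.2% lower and 23.6% in either direction among all 54613 probe sets that are not controls. With doxycycline in both groups PMA raised 7 of the 10 genes and lowered 0, where 12.3% of all genes were called higher, 18.6% lower and 30.8% in either direction. CTSZ was the gene called only without doxycycline, and the difference between the 2 comparisons, tested as an interaction, was -0.15 (SE 0.33, limma adjusted p = 1.0) for it. The probe set count with doxycycline was 13 higher and 1 lower of 20, against 10.7%, 13.8% and, in either direction, 24.5% of all.

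**Figure D1:**
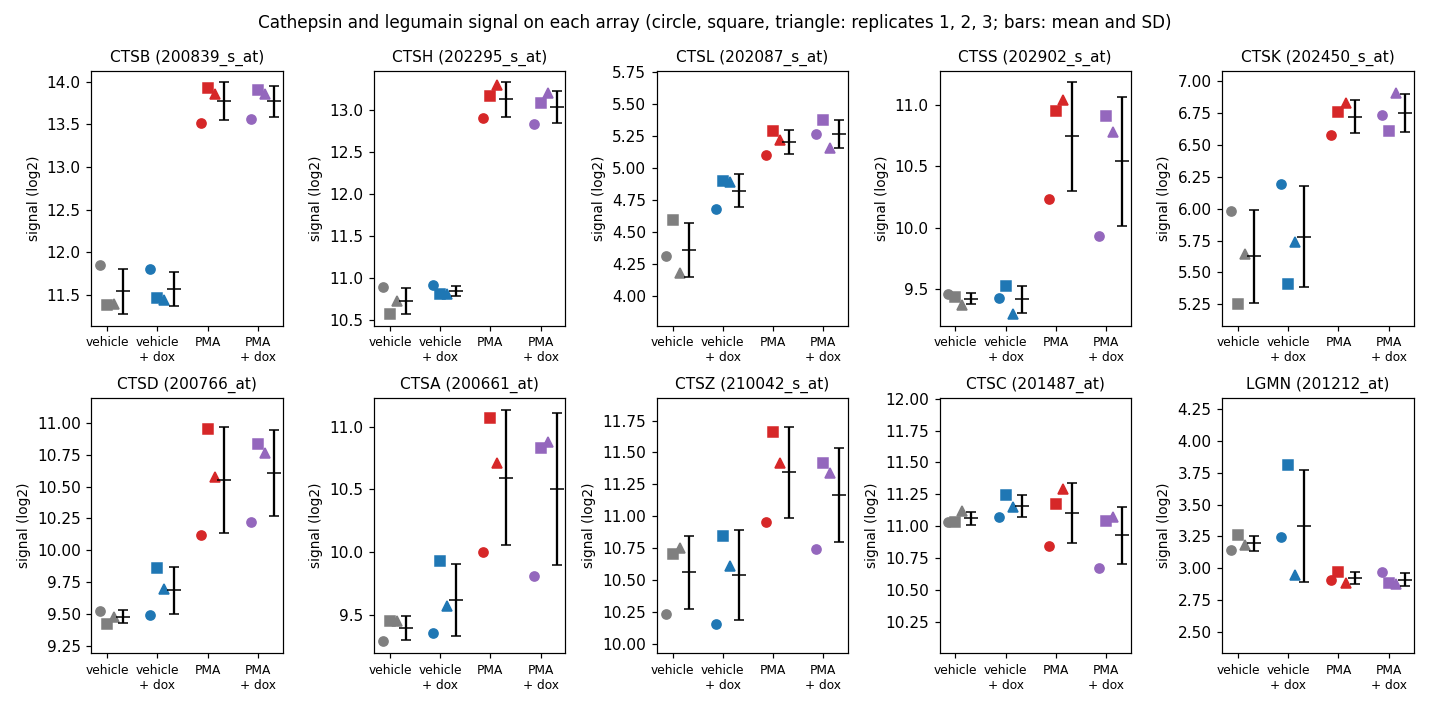
Signal (log2) of the brightest probe set of each of the 10 genes on every array, by group, with circles, squares and triangles for replicates 1, 2 and 3 and bars for the mean and SD. CTSB and CTSH stand highest above vehicle under PMA, the groups of CTSC overlap, and each panel has its own vertical range.

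RefSeq promoter windows of the GRCh38.p14 build were at hand for 6 of the 10 genes (CTSA, CTSC, CTSD, CTSH, CTSL and CTSZ), and the 250 bases before the start site were searched for 4 motifs on both strands. The palindromic E-box CACGTG, which MiT/TFE factors are known to bind, was in 2 of the 6 windows, CTSA and CTSD, against 6.34% of 35116 windows of that length. The CLEAR element of lysosomal genes was taken as the same letters with GT before and AC after them. That exact form was in 0 of 6 and in 0.308% of all. The CTSA E-box farther from the start had GT before it, and the nearer one and that of CTSD had AC after them. Only exact matches were counted, so whether these windows hold CLEAR elements with other flanking letters was not tested. TGACTCA, the AP-1 site linked to phorbol ester responses, was in 0 of 6 and in 4.2% of all. The GC box GGGCGG was in 6 of 6 and in 42.6% of all. These 6 windows were 58.4% to 81.2% G or C, and the base content of all windows was not computed. Below are the windows of CTSA and CTSD, which hold the E-box and rose with PMA, of CTSH, which had the largest rise without doxycycline on the brightest probe sets of these 6 genes, and of CTSC, whose brightest probe set was not called. They are read 5′ to 3′ on the gene's strand and end at the base before the start, with E-boxes and GC boxes in capitals. CTSA spans chr20:45891085-45891334 on the plus strand, CTSD chr11:1763928-1764177, CTSH chr15:78945047-78945296 and CTSC chr11:88337737-88337986 on the minus strand.
CTSA: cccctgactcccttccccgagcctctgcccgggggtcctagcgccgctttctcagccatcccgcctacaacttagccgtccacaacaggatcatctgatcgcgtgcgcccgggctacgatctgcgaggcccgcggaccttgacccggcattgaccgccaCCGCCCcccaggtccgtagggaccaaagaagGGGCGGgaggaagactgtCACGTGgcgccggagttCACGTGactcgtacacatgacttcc
CTSD: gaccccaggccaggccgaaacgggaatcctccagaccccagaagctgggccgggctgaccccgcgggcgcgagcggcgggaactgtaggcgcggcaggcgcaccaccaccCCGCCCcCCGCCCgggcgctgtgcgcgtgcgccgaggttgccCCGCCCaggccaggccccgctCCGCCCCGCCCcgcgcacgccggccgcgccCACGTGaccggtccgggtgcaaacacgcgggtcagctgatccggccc
CTSH: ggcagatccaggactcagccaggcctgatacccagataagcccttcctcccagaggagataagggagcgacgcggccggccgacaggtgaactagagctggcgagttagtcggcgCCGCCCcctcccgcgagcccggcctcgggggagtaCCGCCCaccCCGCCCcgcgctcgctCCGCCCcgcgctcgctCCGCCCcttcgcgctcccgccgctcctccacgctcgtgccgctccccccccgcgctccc
CTSC: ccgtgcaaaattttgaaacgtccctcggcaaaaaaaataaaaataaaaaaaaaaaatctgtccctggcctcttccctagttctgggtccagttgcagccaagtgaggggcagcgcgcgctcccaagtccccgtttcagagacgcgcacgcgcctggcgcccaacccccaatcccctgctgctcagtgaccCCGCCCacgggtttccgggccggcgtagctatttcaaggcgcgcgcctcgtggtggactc
Counting back from the start, with -1 as the base before it, the E-boxes of CTSA lay at -42 to -37 and -25 to -20, and that of CTSD at -47 to -42. GC boxes numbered 2 in CTSA, 5 in CTSD (of which 2 overlap), 5 in CTSH and 1 in CTSC, and in the windows not printed 3 in CTSL and 5 in CTSZ. The matches describe these letters only, and whether any factor was bound was not tested.

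Of the cysteine endopeptidases, which cut within proteins, CTSB moved most. Cathepsin B is an abundant lysosomal protease that also trims dipeptides from the end of its substrates. Its brightest probe set (200839_s_at) read 11.85, 11.38 and 11.39 (log2) on vehicle arrays 1 to 3, 11.80, 11.47 and 11.44 with doxycycline, 13.51, 13.93 and 13.86 under PMA, and 13.56, 13.90 and 13.86 under PMA with doxycycline. All 6 PMA arrays lay above all 6 vehicle arrays, and the arrays with doxycycline lay within 0.08 of their partners of the same number. The PMA difference was 2.23 (SE 0.16, limma adjusted p = 3.32e-07) without doxycycline, a 4.68-fold rise, and 2.20 (SE 0.16, limma adjusted p = 3.21e-07) with it.

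The other 4 probe sets of CTSB rose further, by 2.76 (200838_at), 2.81 (213275_x_at), 3.21 (213274_s_at) and 3.22 (227961_at) without doxycycline. With doxycycline they rose by 2.64, 2.91, 3.01 and 3.17 in the same order. Probe set 227961_at, for one, read 8.53, 8.29 and 8.40 under vehicle and 11.30, 11.78 and 11.81 under PMA. All 5 probe sets passed the test in both comparisons, so they differ in the size of the rise, from 4.68-fold to 9.35-fold without doxycycline, and not in its direction. The groups did not overlap on any of the 5.

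CTSS encodes cathepsin S, an endopeptidase of antigen-presenting cells that stays active at neutral pH and trims the invariant chain of MHC class II. Its brightest probe set (202902_s_at) read 9.46, 9.44 and 9.37 under vehicle, 9.43, 9.52 and 9.30 with doxycycline, 10.24, 10.95 and 11.04 under PMA, and 9.94, 10.91 and 10.78 under PMA with doxycycline. The arrays numbered 1 were the lowest of both PMA groups, and still above all vehicle arrays. The difference was 1.32 (SE 0.24, limma adjusted p = 0.000809), or 2.49-fold, and 1.12 (SE 0.24, limma adjusted p = 0.00255) with doxycycline. The other two probe sets rose as well, 232617_at by 1.59 (SE 0.22) and 202901_x_at by 1.22 (SE 0.33), and by 1.15 and 1.47 with doxycycline. The call of 202901_x_at without doxycycline was lost without vehicle replicate 1 (1.13, adjusted p = 0.0511) and without PMA replicate 3 (0.83, adjusted p = 0.0726).

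CTSK encodes cathepsin K, the collagen-degrading protease of osteoclasts, and its gene lies beside CTSS on chromosome 1 with 1 gene between them in the RefSeq gene table. Probe set 202450_s_at read 5.98, 5.25 and 5.65 under vehicle, 6.20, 5.41 and 5.74 with doxycycline, 6.58, 6.76 and 6.83 under PMA, and 6.74, 6.61 and 6.91 under PMA with doxycycline. PMA and vehicle arrays did not overlap in either comparison, although the vehicle groups spread widely (SD 0.36 and 0.40, n = 3) and their highest arrays were those numbered 1. The PMA difference was 1.09 (SE 0.20, limma adjusted p = 0.000977) without doxycycline and 0.97 (SE 0.20, limma adjusted p = 0.00222) with it.

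CTSL encodes cathepsin L, a strong endopeptidase found in most cell types. It was read dimly, by 202087_s_at, whose mean lay at the 44.7th percentile of all probe sets. The signal was 4.31, 4.59 and 4.18 under vehicle, 4.68, 4.90 and 4.89 with doxycycline, 5.11, 5.29 and 5.22 under PMA, and 5.27, 5.38 and 5.16 under PMA with doxycycline. The groups thus ran from vehicle through vehicle with doxycycline to both PMA groups, which overlapped each other. PMA raised CTSL by 0.85 (SE 0.13, limma adjusted p = 0.000181) without doxycycline and by 0.44 (SE 0.13, limma adjusted p = 0.0182) with it. The second call was lost without vehicle with doxycycline replicate 1 (0.37, adjusted p = 0.0762), without PMA with doxycycline replicate 2 (0.39, adjusted p = 0.0763) and on replicates 2 and 3 alone (0.37, adjusted p = 0.104). The interaction for CTSL was -0.40 (SE 0.18, unadjusted p = 0.0408, limma adjusted p = 1.0).

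Among the exopeptidases, which trim proteins from their ends, CTSH rose and CTSC did not. Cathepsin H is an aminopeptidase that also matures surfactant proteins in the lung. Its probe set (202295_s_at) read 10.88, 10.57 and 10.72 under vehicle, 10.91, 10.81 and 10.80 with doxycycline, 12.90, 13.17 and 13.30 under PMA, and 12.82, 13.07 and 13.20 under PMA with doxycycline. PMA arrays lay above vehicle arrays in both comparisons, with SDs of 0.06 to 0.20 (n = 3) in the 4 groups. The rise was 2.40 (SE 0.14, limma adjusted p = 2.71e-08), or 5.27-fold, and 2.19 (SE 0.14, limma adjusted p = 5.55e-08) with doxycycline.

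CTSC encodes cathepsin C, also called dipeptidyl peptidase I, which activates the serine proteases of myeloid and lymphoid granules. Its brightest probe set (201487_at) read 11.03, 11.03 and 11.12 under vehicle, 11.07, 11.24 and 11.15 with doxycycline, 10.84, 11.17 and 11.29 under PMA, and 10.67, 11.04 and 11.07 under PMA with doxycycline. These groups overlapped. The PMA difference was 0.04 (SE 0.14, 95% interval -0.25 to 0.34, limma adjusted p = 0.884) without doxycycline and -0.23 (SE 0.14, interval -0.52 to 0.07, limma adjusted p = 0.296) with it, so a rise of the size of CTSD's or CTSA's lay outside the intervals of both.

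The other 3 probe sets of CTSC had lower values with PMA, unevenly. Probe set 231234_at read 6.34, 6.47 and 6.49 under vehicle, 6.05, 6.32 and 6.47 with doxycycline, 6.11, 5.60 and 5.52 under PMA, and 4.82, 5.31 and 5.58 under PMA with doxycycline. It fell by 0.69 (SE 0.19, limma adjusted p = 0.0175) and, with doxycycline, by 1.04 (SE 0.19, limma adjusted p = 0.00101). Probe set 225646_at fell by 0.35 (SE 0.12, limma adjusted p = 0.0408), and with doxycycline its difference was -0.33 (SE 0.12, limma adjusted p = 0.0539). Probe set 225647_s_at had -0.14 and -0.32, neither called. The 4 probe sets of CTSC therefore disagree on whether the gene changed.

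Both CTSC calls without doxycycline were lost in some of the fits that leave out 1 array, with differences in the same direction. Probe set 231234_at was not called without vehicle replicate 2 (-0.67, adjusted p = 0.0568) or 3 (-0.66, adjusted p = 0.0604), or without PMA replicate 2 (-0.62, adjusted p = 0.0704) or 3 (-0.58, adjusted p = 0.0806). Probe set 225646_at lost its call in 8 of the 12 fits that leave out 1 array, namely those without vehicle replicate 1 or 3, PMA replicate 1, 2 or 3, vehicle with doxycycline replicate 3, or PMA with doxycycline replicate 2 or 3, where the difference ran from -0.37 to -0.31 and the adjusted p from 0.0501 to 0.137. It was also lost after cyclic loess (-0.24, adjusted p = 0.181), on replicates 2 and 3 alone (-0.29, adjusted p = 0.112) and on the groups compared alone (adjusted p = 0.0511). With doxycycline 225646_at was called with the replicate number as a block (-0.33, adjusted p = 0.0308), without PMA with doxycycline replicate 1 (-0.40, adjusted p = 0.0361) and without vehicle with doxycycline replicate 2 (-0.41, adjusted p = 0.0367). With the mean of the 4 CTSC probe sets in place of the brightest, the gene was called lower in both comparisons, by -0.29 (adjusted p = 0.047) without doxycycline and -0.48 (adjusted p = 0.0022) with it.

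CTSZ encodes cathepsin Z (also named cathepsin X), a carboxypeptidase. Probe set 210042_s_at read 10.23, 10.70 and 10.75 under vehicle, 10.15, 10.84 and 10.61 with doxycycline, 10.96, 11.66 and 11.42 under PMA, and 10.75, 11.42 and 11.34 under PMA with doxycycline. The array numbered 1 was the lowest in each of the 4 groups, and within each number PMA was higher, by 0.72, 0.96 and 0.67 without doxycycline and by 0.59, 0.57 and 0.73 with it. The differences were 0.78 (SE 0.23, limma adjusted p = 0.0237) and 0.63 (SE 0.23, limma adjusted p = 0.0652). With the replicate number as a block the second value was called too (0.63, SE 0.10, adjusted p = 0.000328). The first was lost without vehicle replicate 1 (0.62, adjusted p = 0.105) and without PMA replicate 2 (0.63, adjusted p = 0.11) or 3 (0.75, adjusted p = 0.074), and the second was called without PMA replicate 1 (0.63, adjusted p = 0.0418), PMA with doxycycline replicate 1 (0.84, adjusted p = 0.0163) or vehicle with doxycycline replicate 2 (0.78, adjusted p = 0.0448). The second was also called after cyclic loess (0.75, adjusted p = 0.0308), with dim probe sets left out (0.63, adjusted p = 0.0485), on replicates 2 and 3 alone (0.65, adjusted p = 0.00336) and with the ACTB signal as a covariate (0.86, adjusted p = 3.55e-05). The other CTSZ probe set, 212562_s_at, had differences of -0.02 (95% interval -0.27 to 0.24) and -0.13 (interval -0.39 to 0.12), so the probe sets of CTSZ disagree. The mean of 212562_s_at lay at the 62.6th percentile of all probe sets, and that of 210042_s_at at the 97th.

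CTSD encodes cathepsin D, the main aspartic protease of lysosomes. Its probe set (200766_at) read 9.53, 9.43 and 9.48 under vehicle, 9.50, 9.86 and 9.70 with doxycycline, 10.12, 10.95 and 10.58 under PMA, and 10.22, 10.83 and 10.77 under PMA with doxycycline. The PMA arrays lay above the vehicle arrays in both comparisons, with the array numbered 1 nearest to them. The rise was 1.07 (SE 0.20, limma adjusted p = 0.00106), or 2.10-fold, and 0.92 (SE 0.20, limma adjusted p = 0.00304) with doxycycline.

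CTSA encodes cathepsin A, a serine carboxypeptidase that also shields neuraminidase 1 (NEU1) and beta-galactosidase in a lysosomal complex. Its probe set (200661_at) read 9.29, 9.45 and 9.45 under vehicle, 9.35, 9.93 and 9.57 with doxycycline, 10.00, 11.07 and 10.71 under PMA, and 9.81, 10.83 and 10.88 under PMA with doxycycline. The groups were separate without doxycycline and overlapped with it. PMA raised CTSA by 1.20 (SE 0.29, limma adjusted p = 0.00643) and, with doxycycline, by 0.89 (SE 0.29, limma adjusted p = 0.0353). The call with doxycycline was lost without vehicle with doxycycline replicate 1 (0.76, adjusted p = 0.119) or 3 (0.87, adjusted p = 0.0953) and without PMA with doxycycline replicate 2 (0.73, adjusted p = 0.14) or 3 (0.70, adjusted p = 0.147). NEU1, its partner, rose by 1.14 (SE 0.20, limma adjusted p = 0.000653) and by 1.11 with doxycycline, while GALNS, another enzyme of the complex, had -0.02 and 0.21, neither called.

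LGMN encodes legumain, which also matures several cathepsins, and its only probe set (201212_at) was dim, with a mean at the 13.5th percentile of all. It read 3.15, 3.26 and 3.18 under vehicle, 3.24, 3.81 and 2.94 with doxycycline, 2.91, 2.97 and 2.89 under PMA, and 2.97, 2.89 and 2.88 under PMA with doxycycline. The PMA arrays lay below the vehicle arrays without doxycycline and overlapped with them with it. The differences were -0.27 (SE 0.17, 95% interval -0.63 to 0.09, limma adjusted p = 0.301) and -0.42 (SE 0.17, interval -0.78 to -0.06, limma adjusted p = 0.0874), neither called. Without vehicle with doxycycline replicate 3 the second was -0.62 (adjusted p = 0.0104). The deposited values carry no detection call, so whether LGMN stood above background on these arrays was not tested.

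**Figure D2:**
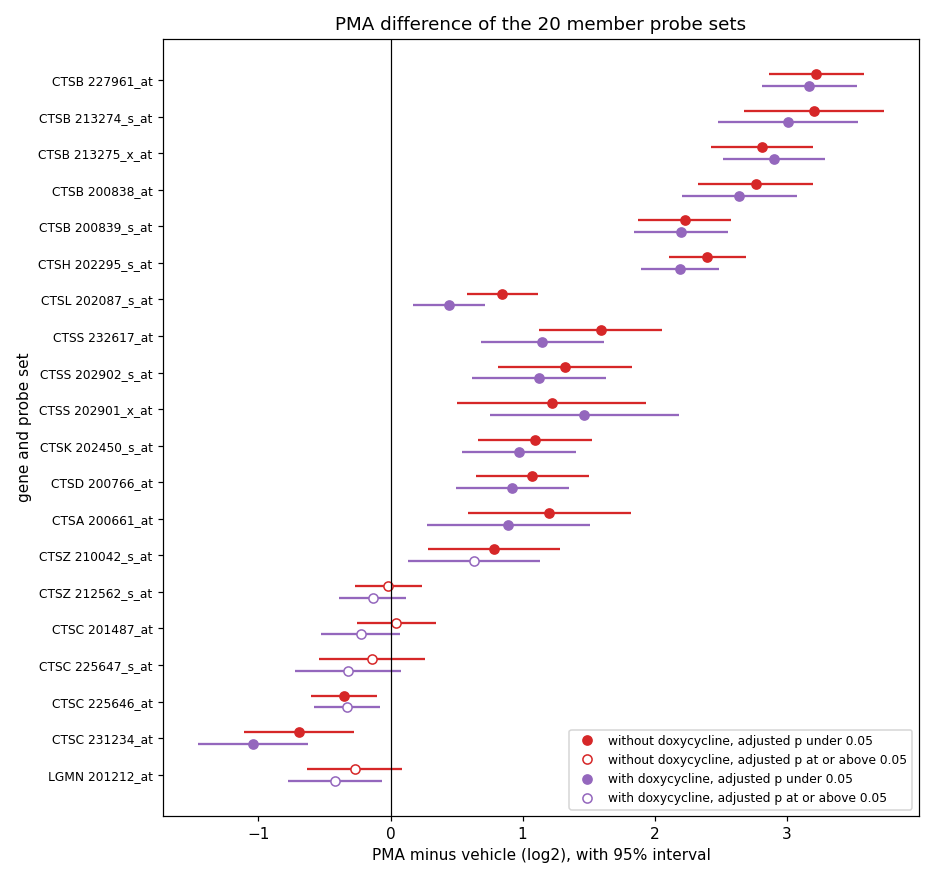
PMA minus vehicle (log2) with its 95% interval for each of the 20 probe sets, without doxycycline (red) and with it (purple), filled where the limma adjusted p is under 0.05. The 5 CTSB probe sets lie at 2.20 to 3.22, while those of CTSC and LGMN lie at 0.04 or below.

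Counted by overlap, the 3 PMA and 3 vehicle arrays were separate on 17 of the 20 probe sets without doxycycline, 14 with PMA higher and 3 with PMA lower, against 36.1% of all probe sets in either direction. With doxycycline they were separate on 14 of 20, 12 higher and 2 lower, against 36.3% of all. Over the 10 genes the median PMA difference between arrays of one number was 0.72, 1.51 and 1.14 for numbers 1 to 3 without doxycycline and 0.56, 0.94 and 1.12 with it. Of the 20 probe sets, 17 had replicate 1 as the lowest PMA array and 15 as the lowest array of PMA with doxycycline, against 37.9% and 35.2% of all probe sets and 44.0% and 54.7% of those PMA raised. In vehicle and in vehicle with doxycycline it was 7 of 20 each, against 35.0% and 35.0% of all. The arrays numbered 1 are those with the high ACTB 3' minus 5' signal. With that signal as a covariate PMA raised 8 of 10 genes without doxycycline and 8 with it, and on replicates 2 and 3 alone 8 and 7. Calls over all 54613 probe sets rose in these fits too. Those called higher numbered 6739 and 6559 with the covariate and 6351 and 6376 on replicates 2 and 3 alone. In the main fit they numbered 5664 and 5866.

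**Figure D3:**
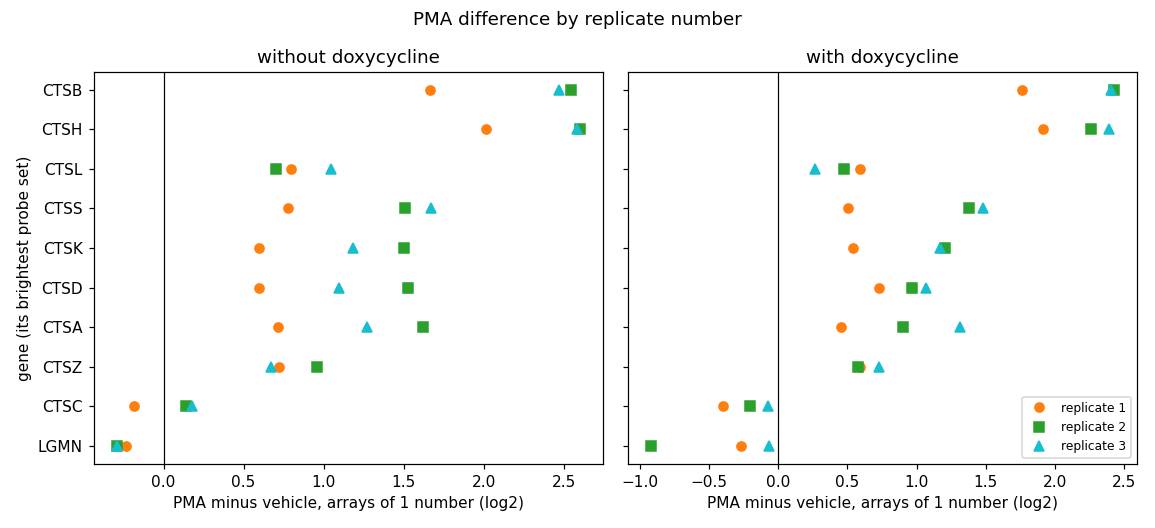
PMA minus vehicle (log2) of the brightest probe set of each gene between arrays of one replicate number, without doxycycline (left) and with it (right). Replicate 1 (orange circles) lies lowest for CTSB, CTSH, CTSS, CTSK, CTSD, CTSA and CTSC in both panels, and in neither for CTSL, CTSZ and LGMN.

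By the root mean square difference of the 12 log2 values, each probe set centred on its own mean, the gene nearest to CTSB among all was CTSH (0.12), and CTSB in turn was the next nearest to CTSH after the kinase gene PIM1 (0.12 and 0.11). CTSD lay nearest to the myeloid receptor gene CD300C (0.08) and CTSZ to CLN3 (0.09), which encodes a lysosomal membrane protein. The nearest genes of the others were LY6E for CTSA (0.13), EXPH5 for CTSC (0.04), ERP44 for CTSK (0.13), MYL11 for CTSL (0.13), MARCHF2 for CTSS (0.11) and ZC2HC1C for LGMN (0.09). A small distance means a like pattern over these 12 arrays only, and a flat probe set such as that of CTSC is near to any other flat one.

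The other genes of the pathway were read from lists of named genes, each gene by its brightest probe set, in PMA against vehicle without doxycycline, where 11.9% of all genes were called higher and 17.8% lower. Of 7 other cathepsins, CTSO rose by 1.57 (SE 0.15), whereas CTSG, which encodes cathepsin G of primary granules, was lower by 3.90 (SE 0.28) and CTSV, a close relative of CTSL, fell by 1.01 (SE 0.22). CTSE, CTSF, CTSW and NAPSA had differences of 0.00 to 0.22, and were not called. Of 13 inhibitors, 1 rose, CSTB by 1.38 (SE 0.13), which encodes cystatin B, an inhibitor of cysteine cathepsins inside the cell, and 12 were not called. Of 6 measured granule proteases that CTSC activates or their kin, 0 rose and 4 fell, CTSG, ELANE (neutrophil elastase, by 3.51), PRTN3 (proteinase 3, by 3.32) and AZU1 (azurocidin, an inactive relative, by 2.76), while GZMA had -0.44 and GZMB 0.18.

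Genes of the machinery that makes lysosomes acid rose with PMA. Of 16 measured subunits of the vacuolar proton pump, 13 rose and 0 fell, with a median of 0.93, led by ATP6V0D2 (4.77, SE 0.13) and TCIRG1 (2.43, SE 0.18), and both are subunits known from osteoclasts. Of 11 genes for lysosomal membrane proteins, 7 rose and 0 fell, among them the cholesterol transporter gene NPC1 (2.60, SE 0.13) and the sialic acid transporter gene SLC17A5 (1.84, SE 0.14). Of 27 other lysosomal enzymes and their activators, 15 rose and 1 fell, with PSAP, the precursor of saposins, at 1.95 (SE 0.15), the iduronate sulfatase gene IDS at 1.93 (SE 0.19), and the carboxypeptidase gene PRCP lower by 0.71 (adjusted p = 0.013).

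Of 9 MiT/TFE factors and their regulators, 4 rose and 0 fell: MITF by 2.38 (SE 0.15), FNIP2 by 1.83 (SE 0.14), TFE3 by 0.97 (SE 0.12) and RRAGD by 0.63 (SE 0.18). TFEB had 0.46 (SE 0.20, limma adjusted p = 0.118), and with doxycycline it was called at 0.86 (limma adjusted p = 0.00441). Genes that sort enzymes to the lysosome went both ways, 2 higher and 4 lower of 13. IGF2R, the large mannose 6-phosphate receptor, rose by 1.72 (SE 0.14) and GNPTG, the gamma subunit of the enzyme that makes the tag, by 1.07 (SE 0.17). GNPTAB, which encodes its catalytic subunits, fell by 1.33 (SE 0.16) and the sorting receptor gene SORL1 by 1.21 (SE 0.18).

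The MHC class II route, in which CTSS works, showed 2 higher and 1 lower of 8 genes: HLA-DMA rose by 1.28 (SE 0.16), HLA-DRB1 rose by 0.81 (SE 0.15), and CD74, the invariant chain, fell by 0.50 (SE 0.15). The calls were thus 3 of 8 in either direction, where 29.7% of all genes were called. CIITA, the regulator of these genes, had 0.16 (SE 0.12, limma adjusted p = 0.409). HLA-DRA was not called either, at 0.08 (SE 0.13, limma adjusted p = 0.755). Of 10 genes of osteoclasts, the cells best known for CTSK, 6 rose and 0 fell, with DCSTAMP, a cell fusion gene, at 5.93 (SE 0.24). ATP6V0D2 and TCIRG1 are in that list too, so the lists overlap.

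With doxycycline in both groups the counts over these lists, beside 12.3% higher and 18.6% lower of all genes, were: 13 higher and 0 lower of 16 for the proton pump, 7 and 0 of 11 for the membrane proteins, 12 and 1 of 27 for the other enzymes, 5 and 0 of 9 for the MiT/TFE list, and 2 and 4 of 13 for sorting. The other cathepsins had 1 higher and 2 lower of 7, with CTSG lower by 4.95, and the inhibitors 1 and 0 of 13, with CSTB at 1.45. Of the 6 granule proteases that CTSC activates or their kin, 4 fell and GZMB was called higher by 0.31 (limma adjusted p = 0.0449). GZMB was dim, with means of 4.68 in vehicle with doxycycline and 4.98 in PMA with doxycycline. Both lie below the array medians of 5.16 to 5.22. The class II list had 2 and 1 of 8, and the osteoclast list 6 and 0 of 10.

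**Figure D4:**
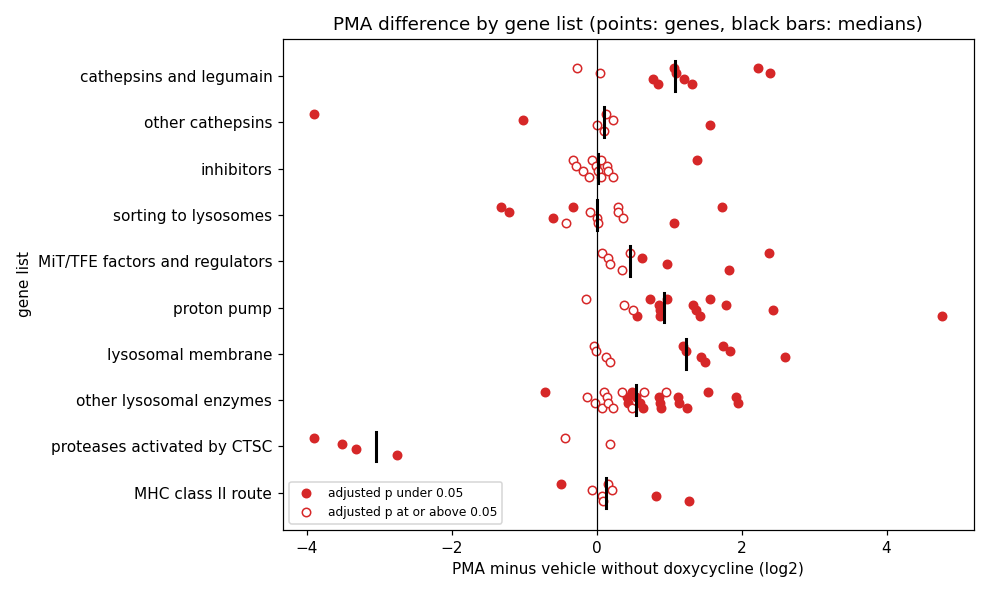
PMA minus vehicle without doxycycline (log2) of each gene's brightest probe set, by list, filled where the limma adjusted p is under 0.05, with black bars at the list medians. The medians are 1.08 for the cathepsins and legumain, 0.93 for the proton pump, 1.23 for the lysosomal membrane and 0.02 for the inhibitors.

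Doxycycline, which switches on the hairpin, moved no cathepsin probe set past the threshold. In vehicle-treated cells 0 of the 20 were called, where 0.0% of all 54613 probe sets were called by limma and 1549 had an unadjusted p under 0.05. Of the 20, 1 had an unadjusted p under 0.05, CTSL, with a difference of 0.46 (SE 0.13, unadjusted p = 0.00259, limma adjusted p = 1.0), higher with doxycycline in 3 of 3 pairs of one number, by 0.37, 0.31 and 0.71. Its groups did not overlap, 4.18 to 4.59 without and 4.68 to 4.90 with doxycycline. One more probe set, CTSS 202901_x_at, was separate in the other direction, with -0.40 (SE 0.33, unadjusted p = 0.251), so 2 of 20 were separate, against 9.09% of all.

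In PMA-treated cells 0 of 20 were called as well, against 0.0% of all, with 3240 of all at an unadjusted p under 0.05, and 0 of 20 had separate groups, against 10.2% of all. With the pairs of one number as a block 79 of all were called and 0 of the 20. Of the 20, 1 had an unadjusted p under 0.05, CTSC 231234_at, at -0.51 (SE 0.19, unadjusted p = 0.0205, limma adjusted p = 0.788), with pair differences of -1.29, -0.29 and 0.06, so the value comes mostly from replicate 1. CTSL had 0.06 (SE 0.13) there. For CTSB the difference was 0.03 (95% interval -0.33 to 0.38) in vehicle and 0.00 (interval -0.35 to 0.36) under PMA, and for CTSH 0.12 (-0.18 to 0.41) and -0.09 (-0.38 to 0.20). Those intervals bound any doxycycline effect on these genes well below their PMA rises, without showing that there was none. Among the brightest probe sets CTSA had the widest ones, -0.40 to 0.84 in vehicle and -0.71 to 0.53 under PMA, and among all 20 CTSS 202901_x_at did, -1.11 to 0.32 and -0.87 to 0.56.

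**Figure D5:**
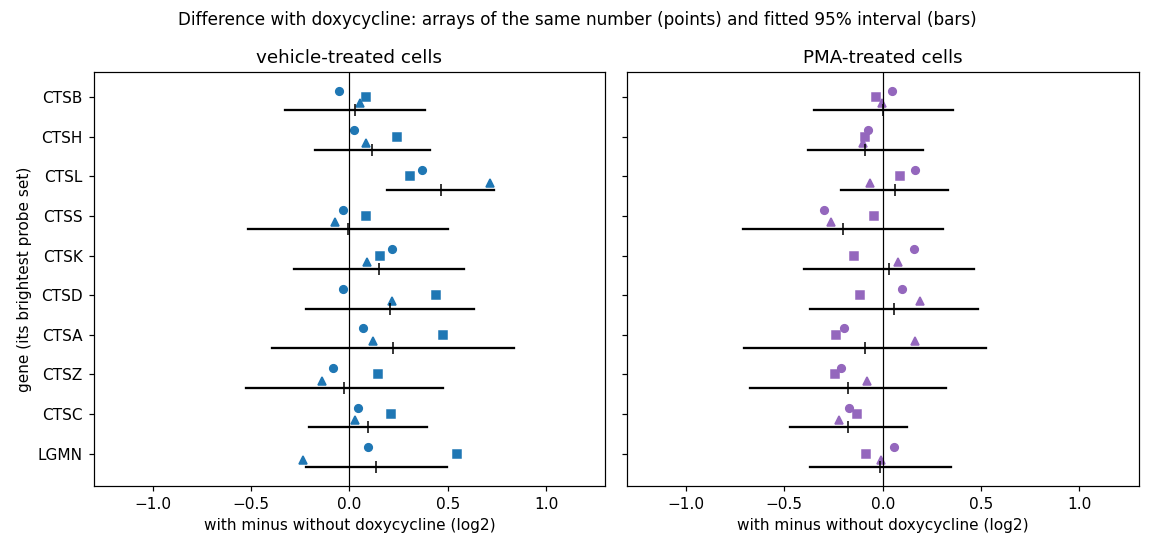
Difference with minus without doxycycline (log2) of each gene's brightest probe set, in vehicle-treated cells (left) and PMA-treated cells (right). Circles, squares and triangles are pairs of arrays numbered 1, 2 and 3, and bars are the fitted 95% interval; the CTSL interval in vehicle-treated cells, 0.19 to 0.74, is the one that does not reach 0.

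Averaged over both agents 0 of 20 were called (0.0% of all, 3222 of them at an unadjusted p under 0.05), and the smallest p was that of CTSL at 0.26 (SE 0.09, unadjusted p = 0.011, limma adjusted p = 0.793). The interaction, which asks whether the PMA difference changed with doxycycline, was called for 0 of 20 (0.0% of all, 1546 of them at an unadjusted p under 0.05). On the brightest probe sets its value was below 0 for 10 of 10 genes, with a median of -0.17, against 55.6% of all genes and 56.1% of the 2351 that PMA raised. These 10 values come from the same 12 arrays and are not separate observations. The ACTB 3' minus 5' signal was not even over the groups. Its mean was 1.44 in vehicle, 1.39 in vehicle with doxycycline, 1.51 in PMA and 1.89 in PMA with doxycycline. The part of that unevenness in the interaction values was not tested. The interaction values of the 10 genes ran from -0.40 (CTSL) to -0.03 (CTSB). Among all 20 probe sets 3 were above 0, CTSS 202901_x_at at 0.25, CTSB 213275_x_at at 0.10 and CTSC 225646_at at 0.02. In none of the other lists was a gene called for doxycycline in any of these comparisons.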

How the data were processed

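RNA of 12 cultures was labelled and read on Affymetrix HG-U133 Plus 2.0 arrays. The deposited values are log2 signals, for which the submitters' processing notes name RMA; its version is not given in the sources used here. RMA scales all arrays to one distribution, so a shift of all genes cannot be seen. Of 54675 probe sets, 62 controls were left out; 41091 pair with 1 gene, 1801 with several and 11721 with none, by the platform annotation with symbols updated through Entrez numbers.

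All 54613 others were fitted as 4 group means over 12 arrays with limma 3.58.1 in R 4.3.3 (lmFit, eBayes; 8 residual and 5.56 prior degrees of freedom, two-sided, Benjamini-Hochberg over all). There were 6 comparisons, 3 arrays a group limit the precision, and the procedure was tested on simulated data. The simulated noise was independent between arrays, so that test does not cover deviations shared by same-numbered arrays. Same-numbered arrays deviated together within agents (correlation over probe sets 0.534, 0.222 and 0.312 in vehicle, 0.565, 0.222 and 0.313 in PMA). Numbers 2 and 3 crossed gave 0.168 and 0.119 in vehicle and 0.313 and 0.213 in PMA. The match by number is thus clear for number 1 and less so for 2 and 3. Pairs by number entered the pair differences and alternative fits for doxycycline, while its main comparisons were fitted without pairs. Across agents the correlation of same-numbered arrays was 0.193, -0.01 and 0.205 without doxycycline and 0.24, 0.088 and 0.123 with it. The labels name biological replicates and do not tell how they were grown, so p-values measure the spread between these arrays. All members were named, and from each list up to 2 rises and 2 falls of largest size, or more where the list has at most 9 genes. The genes, lists and comparisons were chosen with earlier results of these data known. Promoters come from RefSeq (GRCh38.p14).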

Additional observations from a re-analysis of the deposited data

How the results depend on the processing

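Leaving out each of the 12 arrays in turn gave 0 to 2 probe sets called lower without doxycycline (2 with all arrays), 1 to 2 with doxycycline (1 with all), and 0 to 1 genes called lower with doxycycline (0 with all). Among all 54613 probe sets these fits called 5896 to 7546 lower without doxycycline and 6172 to 7846 with it. Cathepsin probe sets called lower without doxycycline numbered 1 after cyclic loess, on replicates 2 and 3 alone and on the groups compared alone. Over all 54613 the numbers were 6668, 8201 and 6945, in that order. With doxycycline the cathepsin probe sets called lower numbered 2 with the replicate block, 2 of 18 with dim probe sets left out, and 2 with the ACTB signal as a covariate. Over all they numbered 8632 of 54613, 7008 of 27307 and 8309 of 54613. Averaging the probe sets of each gene gave 1 gene called lower in both comparisons, CTSC, at -0.29 without doxycycline against 0.04 for its brightest probe set. Of all 19775 genes so averaged, 3616 were called lower without doxycycline and 3744 with it. Without probe sets ending in _s_at or _x_at, 9 probe sets of 6 genes were left. Of these 9, 5 were called higher in each comparison, where 3537 and 3679 of all 39114 left were. These 9 held the brightest probe set of 4 genes, of which 2 were called higher in each. The counts of cathepsin probe sets and genes called higher stayed within 1.5 times of the main ones in all other fits, and each called value kept its direction. The replicate block, across agents, changed the call of CTSC 225646_at and CTSZ 210042_s_at with doxycycline (-0.33 and 0.63, both then called) and no other call of a cathepsin probe set in either PMA comparison. For the doxycycline comparisons no alternative called a cathepsin probe set, although signs of uncalled values changed in 21 to 37 of the 240 values a comparison has when each array is left out in turn. The check of ZXDC, averaged over both agents, gave -0.50 with the replicate block and -0.39 on replicates 2 and 3 alone, both chosen after seeing the data. Dim signal limits what can be said of LGMN and CTSL.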
